A study of Mus musculus with 44 samples.

Results

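The 7 genes described here encode the core proteins of non-homologous end joining in the mouse. They are Xrcc5, Xrcc6, Prkdc, Dclre1c, Xrcc4, Lig4 and Nhej1, chosen by symbol from the 23234 genes of the deposited expression table. All 7 were found, and all 7 passed the filter on low values described below. The series followed multipotent blood progenitors, called iLS cells, that were derived from C57BL/6J mouse fetal liver and held in an uncommitted state by an Id3 protein fused to a receptor domain (ERT2) that needs 4-hydroxytamoxifen (4-OHT). Per the labels, growth was on the mouse stromal line TSt-4, which serves as a feeder, with 40 nM 4-OHT, 20 ng/mL IL-7 and 10 ng/mL each of SCF and Flt-3L. Differentiation toward B cells began, again on TSt-4, when 4-OHT was left out and IL-7 lowered to 5 ng/mL. Every group carries the fusion and the feeder, and by the labels the groups differ in the time since that change of culture. The 44 libraries of poly(A) RNA cover 16 time points. Triplicates were made at 0, 0.5, 1, 2, 4, 6, 8, 10, 12, 24, 48, 72, 96 and 144 h (14 time points), and 120 h and 168 h have 1 library each. The labels do not say whether replicates were separate cultures, and the p-values then measure only the spread between these libraries.

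Non-homologous end joining rejoins the 2 ends of a DNA double-strand break without a template. The Ku heterodimer, made of Ku70 (encoded by Xrcc6) and Ku80 (Xrcc5), encircles each end and recruits the DNA-dependent protein kinase catalytic subunit (Prkdc). That kinase activates the nuclease Artemis (Dclre1c), which opens hairpin ends, and the ends are joined by DNA ligase IV (Lig4) together with XRCC4 (Xrcc4) and XLF (Nhej1). In B-cell precursors the same proteins join the breaks that the RAG recombinase makes in V(D)J recombination, and mice without Ku, the kinase subunit or Artemis have few or no mature lymphocytes.

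Both Ku genes lie on the plus strand, and the bases before their annotated starts differ in composition. They are shown because the proteins work as a pair while the RNA levels of the pair did not run in parallel. The sequences are the 140 bases before the RefSeq start in the GRCm38.p6 build, and capitals mark each CpG (a C followed by a G, which reads the same on both strands). The expression table was made on another build, mm9. A RefSeq entry was found for 6 of the 7 genes, all but Prkdc.
Xrcc6, chr15:82016229-82016368, plus strand: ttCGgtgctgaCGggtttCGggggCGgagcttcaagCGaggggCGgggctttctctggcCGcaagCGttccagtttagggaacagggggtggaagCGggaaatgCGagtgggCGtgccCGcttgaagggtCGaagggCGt
Xrcc5, chr1:72307281-72307420, plus strand: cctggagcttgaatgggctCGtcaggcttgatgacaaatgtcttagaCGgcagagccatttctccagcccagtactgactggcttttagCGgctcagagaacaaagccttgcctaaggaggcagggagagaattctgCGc
The Xrcc6 window is 65% G or C and holds 14 CpG, a number that 15.9% of the 32851 promoters in the table reach or exceed in a window of this length. The Xrcc5 window is 53.6% G or C and holds 4 CpG, beside medians over all promoters of 54.3% and 3 CpG. The letters CANNTG, the core of sites that E proteins (the partners of Id3) bind, were searched and read the same on both strands. They occur 1 time in the Xrcc5 window and 0 times in that of Xrcc6, against at least 1 match in 45.4% of all promoters. Such matches describe the letters only.

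Expression was deposited as FPKM, fragments scaled for transcript length and library size, so levels of different genes can be set side by side. The FPKM of a library summed to between 516025 and 701705. The file gives no counts, and fragment numbers were estimated from the position of its lowest values, which placed the libraries at 1020000 to 3090000 fragments (median 1200000), rounded to the nearest 10000. At that depth a typical library held about 117 fragments of Xrcc6, 112 of Dclre1c, 44.2 of Xrcc5 and 39.2 of Prkdc, but 17.9 of Xrcc4, 9.79 of Lig4 and 5.08 of Nhej1. For the tests, log2(FPKM + 1) was fitted with limma over the 13907 genes that reached 1 FPKM in at least 3 of 42 libraries. A gene is called changed at an adjusted p (Benjamini-Hochberg over those genes) under 0.05, and a log2 change is given ± its SE. The pseudocount of 1 makes the log2 change of a low gene smaller than that of its FPKM.

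The RNA in the libraries changed in origin over the same hours, and this touches each result below. The summed FPKM of 25 stromal feeder genes, such as those of collagens and Cxcl12, was 1595 ± 990 at 0 h (SD, n = 3; range 808 to 2706). By 0.5 h it had reached 7853 ± 949, it stood at 9558 ± 887 at 24 h (8625 to 10390), and 144 h gave 2923 ± 821 (2104 to 3746). Of these genes, Lum was listed at 0 in all 44 libraries and Dcn in 43. For 18 genes common to blood cells, Ptprc among them, the sum ran the other way, from 2756 ± 393 at 0 h (2352 to 3135) to 677 ± 250 at 24 h (400.1 to 886.8) and 2140 ± 218 at 144 h (1930 to 2364). At 24 h all 23 tested stromal genes had risen and all 18 blood-cell genes had fallen against 0 h. Of 23 stromal genes 21 then fell to 144 h and 18 of 18 blood-cell genes rose. The 7 B-lineage markers had sums of 104 FPKM (0 h), 46.8 (24 h) and 1270 (144 h). At 24 h against 0 h 6 of them were called lower and 1 higher, Ebf1, which went from 13.3 to 24.1 FPKM. Of the T-cell markers Cd3e was listed at 0 in 41 libraries, but Cd3g in 17 and Cd8a in 15, with means of 4.01 and 0.425 FPKM at 0 h and 4.70 and 0.256 at 144 h, and Hbb-b1, a globin gene of red cells, stood at 92.5 FPKM at 0 h. In bulk RNA, fewer cells of a type and less RNA per cell cannot be told apart. How much of a member's change comes from the shift between feeder and blood-cell RNA was not tested, so each main direction below is given also with every library scaled to the blood-cell genes. That scaling puts the median log2 change of all genes at 1.69 for 24 h against 0 h and at -1.34 from 24 to 144 h. The pseudocount was added after the scaling, so the shift it gives depends on the level of a gene. Changes relative to the median of all genes therefore also differ between levels as deposited and so scaled.

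The 7 genes did not move as a group. By the F test of limma over all time points, 4 of the 7 differed from 0 h at some time, namely Xrcc6 (adjusted p = 1.17e-09), Prkdc (0.0023), Nhej1 (0.0143) and Lig4 (0.0195). Of all genes tested, 56.0% did so. Without 1 of the 3 replicate numbers, Xrcc6 passed each time, Prkdc only without number 1 (adjusted p = 0.027, against 0.120 and 0.0705 without numbers 2 and 3), and Lig4 never (0.0858 to 0.285). Xrcc4 (adjusted p = 0.244), Xrcc5 (0.644) and Dclre1c (0.691) did not pass. At 24 h against 0 h, 1 member rose and 2 fell (7 and 0 with the blood-cell scaling), where 43.3% of all genes were called, and the median log2 change of the 7 was 0.09 beside -0.06 for all genes. For 144 h against 24 h, 2 members rose and none fell (0 and 5 so scaled), where 32.9% of all genes were called, and the medians were -0.06 and 0.08. At 144 h against 0 h no member was called by limma, while Xrcc6 had an unadjusted p of 0.0297 and 8.89% of all genes were called. The percentages are for the levels as deposited, where the shares of members called were near those of all genes. The share of all genes called with the blood-cell scaling is not given here. None of these counts, scaled or not, is a result about the members. The numbers of members called against 0 h were 1 at 1 h (32.1% of all genes), 3 at 6 h (38.1%) and 1 at 72 h (25.4%). Between 6 and 24 h limma called no member, 1 had an unadjusted p under 0.05 (Nhej1), and 2.08% of all genes were called.

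**Figure D1:**
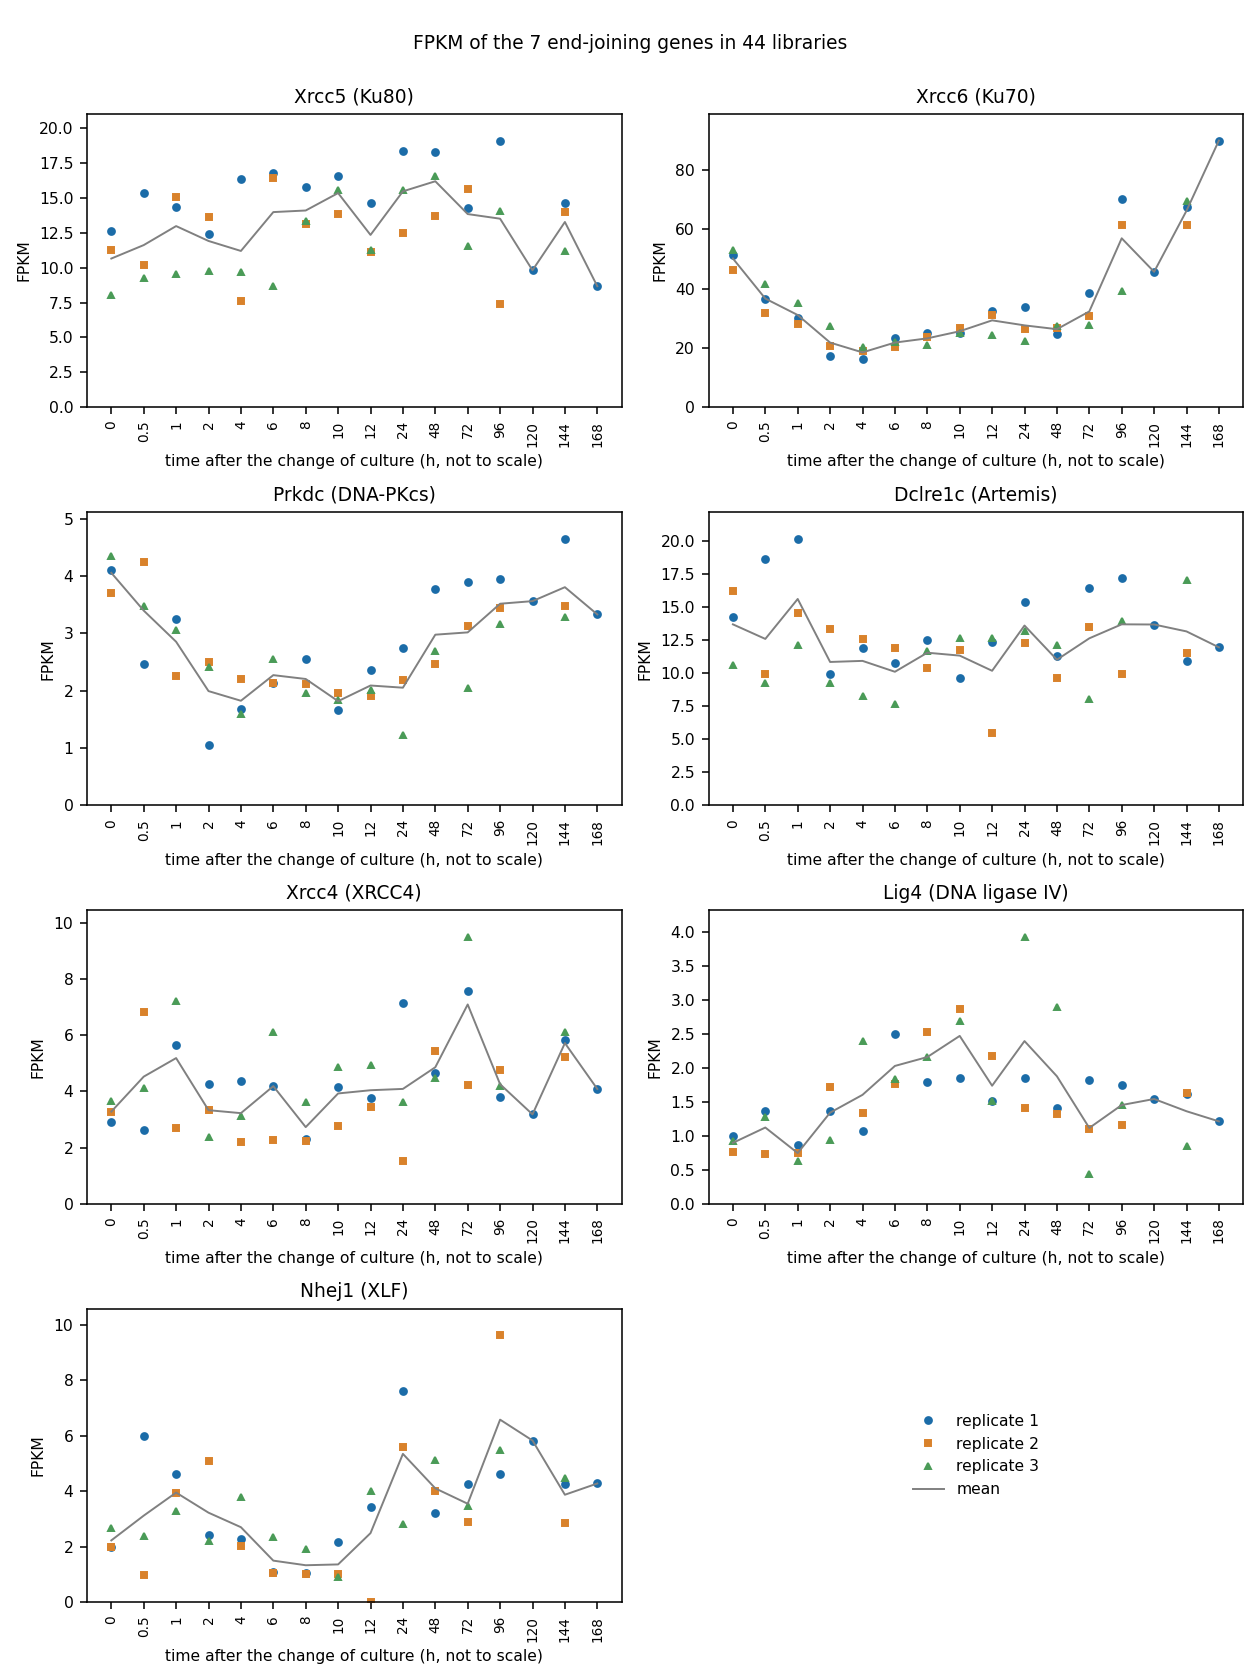
FPKM of each of the 7 genes (vertical axes, each from 0 with its own range) in the 44 libraries against time after the change of culture (h, not to scale); points are libraries, with 1 symbol per replicate number, and a line runs through the means. Xrcc6 goes from a mean of 50.2 at 0 h through 18.5 at 4 h to 66.3 at 144 h, Prkdc is low from 2 to 24 h, and the points of the other genes scatter widely within a time point.

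Xrcc6 had the highest level of the 7 genes and the clearest course. Its median over the 44 libraries was 27.8 FPKM, at the 79.0th percentile of the genes tested. The 3 libraries at 0 h held 51.3, 46.2 and 52.998 FPKM, those at 4 h 16.2, 19.1 and 20.2, those at 24 h 33.9, 26.5 and 22.5, and those at 144 h 67.5, 61.6 and 69.7. The libraries at 4 and 24 h all lay below those at 0 h and those at 144 h all lay above them. Such separation from 0 h was found for 48.3% (4 h), 47.4% (24 h) and 23.1% (144 h) of all genes. The level fell by 0.68 ± 0.17 (log2) at 1 h (adjusted p = 0.00318), which turns to a positive change of 0.49 with the blood-cell scaling (adjusted p = 0.0740). It had its lowest mean at 4 h, where the log2 change was -1.40 ± 0.17 (adjusted p = 1.62e-07, and 0.03 so scaled). Limma called it lower than 0 h at 10 time points, all from 1 to 72 h. At the times not yet given, 21.6% of all genes were called (0.5 h), 35.0% (2 and 4 h), 39.6% (8 h), 41.5% (10 h), 41.9% (12 h), 38.4% (48 h) and 10.3% (96 h). At 0.5 h the change of -0.45 ± 0.17 did not pass (adjusted p = 0.0623, and 0.0449 without 0.5 h replicate 3).

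The recovery of Xrcc6 came late. The means of 24, 48 and 72 h were 27.6 ± 5.79, 26.3 ± 1.505 and 32.3 ± 5.63 FPKM (SD, n = 3), and their libraries overlapped. At 96 h the 3 libraries held 70.2, 61.5 and 39.3 FPKM, the widest spread of any time point for this gene, and the single libraries of 120 and 168 h held 45.7 and 89.96 FPKM. The gene rose from 24 to 144 h by 1.25 ± 0.17 (log2, adjusted p = 2.62e-06, and -0.44 with the blood-cell scaling), and 144 h lay above 0 h by 0.40 ± 0.17, which did not pass (adjusted p = 0.165). That difference passed with library-code runs as a block (0.59, adjusted p = 0.0465) and with the blood-cell scaling (0.81, adjusted p = 0.0403). In the order of the 14 means, the libraries of 12 of 13 neighbouring time points overlapped, and only 0.5 h and 0 h did not. Within a run of consecutive library codes, the log2 change at 24 h was -0.58 and -0.78 in the 2 runs that hold both times, and the rise from 24 to 144 h was 1.59 in the 1 run that does. No run holds both 0 h and 144 h, so no run compares them directly. The block estimate of 0.59 links them through 8 to 24 h, times that runs with 0 h share with a run with 144 h. It assumes that a run shifts all its time points equally, which was not tested.

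The direction of the early fall of Xrcc6 depends on the scaling. The changes against 0 h were -1.17 ± 0.17 at 6 h and -0.86 ± 0.17 at 24 h as deposited (adjusted p = 2.76e-06 and 0.000164), and 0.42 and 1.25 after scaling to the blood-cell genes (adjusted p = 0.104 and 1.35e-05). Relative to the median of all genes under that scaling they were -0.79 and -0.44 (-1.11 and -0.80 as deposited). The scaled change of -0.44 from 24 to 144 h was 0.90 above the median of all genes (1.17 as deposited). With the mean of the stromal genes as a covariate, the 24 h change was -0.24 and the rise from 24 to 144 h was 0.86 (adjusted p = 0.0503). Neither passed, nor did the changes at 1, 6 and 72 h. The stromal mean itself changed with time, and this fit called far fewer of all genes at 24 h than the 6020 called without it. Not passing at 24 h in this fit therefore decides nothing about Xrcc6. The calls of Xrcc6 at 1, 6 and 24 h and from 24 to 144 h held when any 1 library of the groups was left out, and that at 72 h (-0.63 ± 0.17, adjusted p = 0.0067) was lost without 72 h replicate 3 (adjusted p = 0.0579) and with library-code runs as a block (0.104).

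Xrcc5, the gene of the other Ku subunit, did not pass in any comparison of the levels as deposited. The 0 h libraries held 12.6, 11.2 and 8.07 FPKM, the 24 h libraries 18.3, 12.5 and 15.6 and the 144 h libraries 14.7, 13.99 and 11.2. The 3 groups overlapped. The lowest mean was 10.7 ± 2.34 FPKM at 0 h and the highest 16.2 ± 2.33 at 48 h (SD, n = 3), a 1.52-fold range. The largest change against 0 h was 0.57 ± 0.27 (log2) at 48 h, which did not pass (adjusted p = 0.0919), although the libraries of the 2 groups did not overlap, as for 50.2% of all genes. All 13 neighbouring pairs in the order of its means overlapped. With the blood-cell scaling it did pass, in the F test (adjusted p = 4.45e-06) and at every replicated time from 0.5 to 72 h. The scaled changes were 2.47 at 24 h (adjusted p = 2.42e-07) and -1.81 from 24 to 144 h (adjusted p = 4.19e-05). Relative to the median of all genes those changes were 0.77 and -0.47 (0.56 and -0.28 as deposited).

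The ratio of Xrcc6 to Xrcc5 within a library does not change when a library is rescaled. The 0 h libraries had ratios of 4.06, 4.11 and 6.56, the 6 h libraries 1.38, 1.23 and 2.52, the 24 h libraries 1.85, 2.12 and 1.44 and the 144 h libraries 4.61, 4.40 and 6.24. The ratios at 6 and 24 h all lay below those at 0 h and at 144 h. The mean went from 4.91 ± 1.43 at 0 h to 1.80 ± 0.342 at 24 h and 5.08 ± 1.005 at 144 h (SD, n = 3). A two-sided exact permutation test gave p = 0.1 for 6 h against 0 h, for 24 h against 0 h and for 144 h against 24 h. That is the smallest p which 3 against 3 libraries allow, and it was 0.178 after adjustment over the 16 ratio tests made. At 144 h the ratio differed from that at 0 h by 1.05-fold (exact permutation p = 0.6). The single library at 168 h held a ratio of 10.4 and that at 120 h 4.65. A ratio within a library cannot show which of the 2 RNAs changed. Rescaling leaves it as it is, but a shift between feeder and blood-cell RNA can alter it. The part of that shift in this ratio and those below was not tested.

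**Figure D2:**
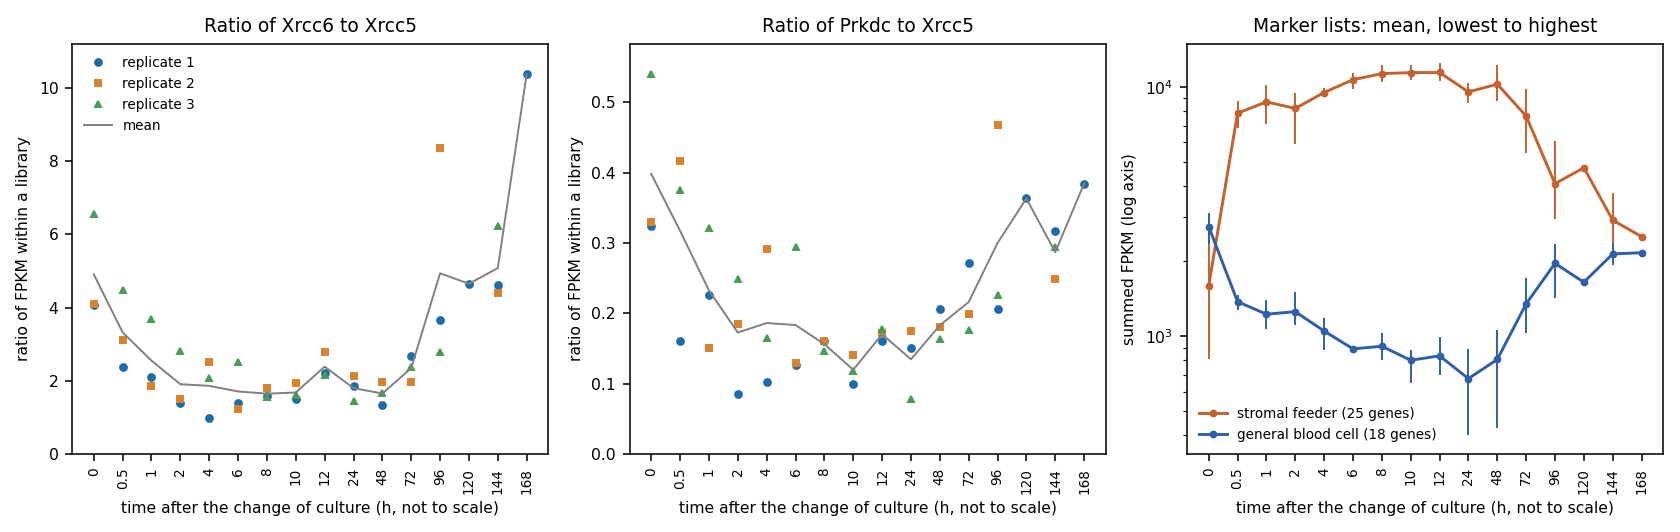
Left and centre: ratio of the FPKM of Xrcc6 and of Prkdc to that of Xrcc5 within each library (vertical axes) against time after the change of culture (h, not to scale), with points for libraries and a line for the mean. Right: summed FPKM of 25 stromal feeder genes and 18 general blood-cell genes on a log axis, with points for means and bars from the lowest to the highest library. The ratio of Xrcc6 to Xrcc5 has means of 4.91, 1.80 and 5.08 (0, 24 and 144 h), and the blood-cell sum has means of 2756, 677 and 2140 at these times.

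Prkdc, the gene of the kinase subunit that Ku recruits, was low in FPKM and followed a course like that of Xrcc6. The 0 h libraries held 4.10, 3.71 and 4.36 FPKM, the 10 h libraries 1.66, 1.96 and 1.84, the 24 h libraries 2.75, 2.19 and 1.22 and the 144 h libraries 4.65, 3.48 and 3.29. The values at 24 h lay below every value at 0 h and at 144 h, and those latter groups overlapped. Between 24 and 144 h, 37.2% of all genes had groups that did not overlap. Limma called Prkdc lower than 0 h at 7 time points, all from 2 to 24 h. The changes were -0.84 ± 0.21 (log2) at 10 h (adjusted p = 0.00164) and -0.76 ± 0.21 at 24 h (adjusted p = 0.00401), which are 0.45 and 0.79 with the blood-cell scaling. It rose from 24 to 144 h by 0.68 ± 0.21 (adjusted p = 0.0130, and -0.57 so scaled), and its 144 h level lay 0.08 ± 0.21 below that at 0 h, which did not pass (adjusted p = 0.89). Within the 2 runs that hold both times the 24 h change was -0.44 and -0.56.

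By the estimate of depth, the calls of Prkdc rested on fewer fragments than those of Xrcc6. The 24 h call was lost without 24 h replicate 3, the lowest library (-0.55, adjusted p = 0.0536), and when only the 0 and 24 h libraries were fitted (adjusted p = 0.0661). The 2 h call was lost without 2 h replicate 1 (adjusted p = 0.0600), and the 6 h call without 0 h replicate 3 or without replicate 1 or 2 at 6 h (0.0539 to 0.0551). The rise from 24 to 144 h was lost without 24 h replicate 3 (adjusted p = 0.128) or 144 h replicate 1 (0.0736). Relative to the median of all genes under the blood-cell scaling, the changes at 24 h and from 24 to 144 h were -0.91 and 0.77. As deposited they were -0.70 and 0.60 relative to that median. The ratio of Prkdc to Xrcc5 was 0.398 ± 0.123 at 0 h, 0.135 ± 0.0504 at 24 h and 0.287 ± 0.0349 at 144 h (SD, n = 3), with no overlap between any 2 of the 3 groups (exact permutation p = 0.1, the smallest possible, and 0.178 adjusted). At 144 h the ratio was 0.738-fold that at 0 h, where the highest value at 144 h, 0.317, lay just below the lowest at 0 h, 0.325.

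Dclre1c, the gene of the nuclease Artemis, did not pass in any comparison of the levels as deposited. The 0 h libraries held 14.2, 16.2 and 10.6 FPKM, the 24 h libraries 15.4, 12.3 and 13.2 and the 144 h libraries 10.9, 11.5 and 17.1, all overlapping. Means ran from 10.1 ± 2.19 at 6 h to 15.6 ± 4.13 at 1 h (SD, n = 3), a 1.54-fold range, and the lowest adjusted p against 0 h was 0.193. With the blood-cell scaling it passed at 1, 4, 6, 8, 10, 12, 24 and 48 h (2.00 at 24 h, adjusted p = 1.05e-05). So scaled it also passed from 24 to 144 h (-1.67, adjusted p = 0.000161). Relative to the median of all genes the changes of 24 h and of the later interval were 0.30 and -0.33 (0.06 and -0.14 as deposited). The ratio of Dclre1c to Prkdc was 3.43 ± 0.964 (0 h), 7.33 ± 3.01 (24 h) and 3.61 ± 1.45 (144 h). The 24 h ratio was 2.09-fold that at 0 h (exact permutation p = 0.1, the smallest possible).

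**Figure D3:**
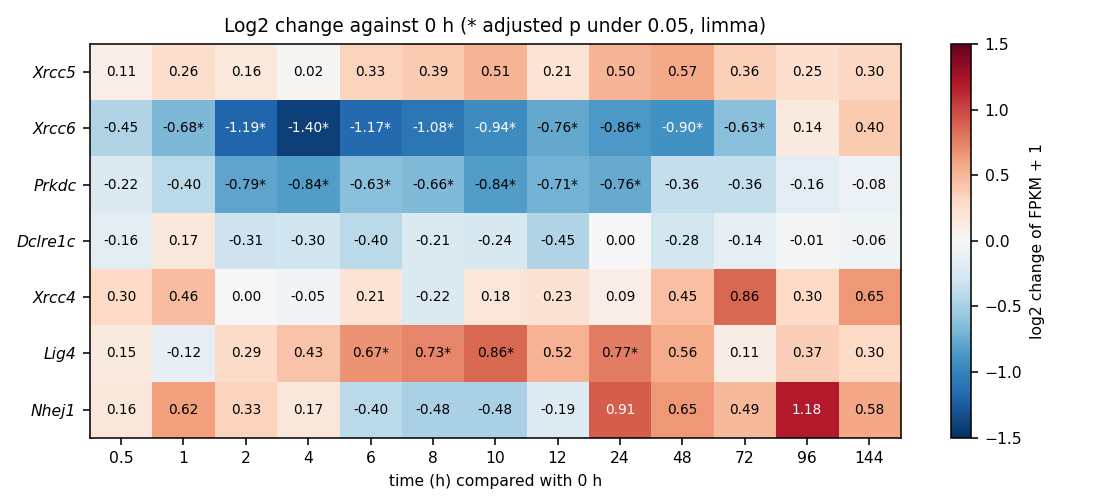
Log2 change of FPKM + 1 against 0 h for each of the 7 genes (rows) at each replicated later time point (columns, h), red for higher and blue for lower, with an asterisk where the adjusted p of limma is under 0.05. The asterisks sit on Xrcc6 from 1 to 72 h, Prkdc from 2 to 24 h and Lig4 at 6, 8, 10 and 24 h. Scaled to the blood-cell genes, the blue fields of Xrcc6 and Prkdc at 1, 6, 24 and 72 h turn positive.

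Of the 3 ligation genes, Lig4 was the only one called in a contrast with 0 h. At its 4 called times it was higher while Xrcc6 and Prkdc were called lower as deposited, and with the blood-cell scaling all 3 were above 0 h at 6 and 24 h. This gene of the ligase itself had the lowest level of the 7, with a median of 1.49 FPKM. The 0 h libraries held 1.005, 0.758 and 0.929 FPKM, the 10 h libraries 1.85, 2.87 and 2.70, the 24 h libraries 1.85, 1.41 and 3.93 and the 144 h libraries 1.62, 1.62 and 0.847. The values at 24 h were all above those at 0 h, while the 144 h values overlapped them. Limma called Lig4 higher than 0 h at 4 time points. The changes were 0.67 ± 0.26 (log2) at 6 h (adjusted p = 0.0371), 0.73 ± 0.26 at 8 h (0.0220), 0.86 ± 0.26 at 10 h (0.00692) and 0.77 ± 0.26 at 24 h (0.0144). At 12 h, between the called times, the change was 0.52 ± 0.26 and did not pass (adjusted p = 0.10), and at 144 h it was 0.30 ± 0.26 (adjusted p = 0.561).

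Only the 10 h call of Lig4 held without any 1 library of its groups, among its 4 calls. The 6 h call was lost without any 1 of the 6 libraries (highest adjusted p = 0.136). The 8 h call was lost without 0 h replicate 2 or without replicate 2 or 3 at 8 h (adjusted p = 0.0504 to 0.0820). The 24 h call was lost without 0 h replicate 2 (0.0504) or 24 h replicate 3 (0.168), the library with 3.93 FPKM, and when only the 0 and 24 h libraries were fitted (0.101). The 6 h call was also lost with quantile normalization (0.159). Within the 2 runs that hold both times the 24 h change was 0.51 and 0.45. Scaled to the blood-cell genes Lig4 was again higher, by 1.94 at 24 h, which is 0.24 above the median of all genes (0.83 as deposited). From 24 to 144 h its change was -0.47 ± 0.26 and did not pass (adjusted p = 0.157), and so scaled it fell by 1.59 (adjusted p = 0.000459).

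Xrcc4, whose protein is the scaffold of ligase IV, did not pass against 0 h as deposited. Its libraries held 2.90, 3.28 and 3.66 FPKM at 0 h and 7.58, 4.22 and 9.49 at 72 h, the time of its highest mean. These groups did not overlap, as for 37.0% of all genes, and the change was 0.86 ± 0.34 (log2, adjusted p = 0.0584). It passed with the replicate block (adjusted p = 0.0376) and without 72 h replicate 2 (0.0234). With the blood-cell scaling the gene passed at 1, 4, 6, 8, 10, 12, 24, 48 and 72 h (1.68 at 24 h, adjusted p = 0.000365). At 24 h the values of 7.13, 1.52 and 3.61 spread more than at any other time point, and at 144 h the gene stood at 5.72 ± 0.461 FPKM (SD, n = 3). From 24 to 144 h the change of 0.56 ± 0.34 did not pass (adjusted p = 0.213, and 0.0284 without 24 h replicate 1). The ratio of Xrcc4 to Lig4 was 3.72 ± 0.746 (0 h), 1.95 ± 1.65 (24 h) and 4.68 ± 2.21 (144 h), and no exact permutation test of it gave a p under 0.2.

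Nhej1, the gene of the bridging factor XLF, passed the F test but no single contrast of the levels as deposited. The 0 h libraries held 1.99, 2.00 and 2.68 FPKM, the 8 h libraries 1.06, 1.03 and 1.90, the 24 h libraries 7.61, 5.58 and 2.83 and the 96 h libraries 4.62, 9.61 and 5.49. Every library at 8 h lay below, and every library at 24 and 96 h above, the 3 at 0 h. Groups lay apart in this way for 52.3% of all genes at 8 h and 24.2% at 96 h. It was listed at 0 in replicate 2 at 12 h, and its median coefficient of variation within a time point, 39.0%, was the highest of the 7. The changes against 0 h were 0.91 ± 0.43 at 24 h (adjusted p = 0.089, and 0.0402 without 24 h replicate 3) and 1.18 ± 0.43 at 96 h (0.0762). The F test call was lost with each replicate number left out (adjusted p = 0.0722 to 0.115), with a pseudocount of 0.1 (0.0856), with library-code runs as a block (0.0681) and with the stromal covariate (0.0508). With the blood-cell scaling the gene passed at 1 h, at 24 h (2.41, adjusted p = 5.96e-05) and at 48 h (1.89, adjusted p = 0.0010). So scaled it also passed from 24 to 144 h (-1.70, adjusted p = 0.00302) and from 6 to 24 h (1.84, adjusted p = 0.0443). The part of its low estimated fragment number in this spread was not tested.

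Across the 14 time-point means, on the log2 scale, Xrcc6 and Prkdc correlated at Pearson r = 0.870, the highest value among the 21 pairs of members. Xrcc6 and Xrcc5 stood at -0.170, Prkdc and Lig4 at -0.639 and Xrcc5 and Lig4 at 0.614. These are descriptions, since all genes share the 14 groups of libraries and their feeder content. By the same measure over all tested genes, the courses most like that of Xrcc6 were those of Itgam (0.968), an integrin gene of myeloid cells, Cd84 (0.963), a receptor gene of blood cells, and Cerk (0.960), a ceramide kinase gene. The nearest to Prkdc were Cdk19 (0.954), Epb4.1l4b (0.954) and Wdtc1 (0.950). For Lig4 they were Nup35 (0.929), Tfg (0.923) and Eif2s2 (0.8997), and for Xrcc5 Ccdc46 (0.927), Psma4 (0.885) and Sema5a (0.864). For Dclre1c, Gm5607, Ppp6c and Casc4 led with 0.911, 0.910 and 0.856. Zfr2 and Lrsam1 were among the nearest to Xrcc4, with 0.872 and 0.861. For Nhej1, Slc43a3, Cops3 and Sp2 led with 0.859, 0.850 and 0.827.

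Some members share a divergent start region with another gene. In the GENCODE annotation 4 members have an oppositely oriented gene that starts within 1000 bases of their own start. These pairs are Xrcc6 with Desi1 (Pppde2 in the file), Prkdc with Mcm4, Xrcc4 with Tmem167 and Lig4 with Abhd13. At 24 h against 0 h none of the 4 was called, with log2 changes of -0.10 ± 0.18 for Pppde2, -0.21 ± 0.19 for Mcm4, -0.19 ± 0.19 for Tmem167 and 0.06 ± 0.20 for Abhd13. At other times limma called Pppde2 lower at 2, 4 and 6 h (-0.88 ± 0.18 at 2 h, adjusted p = 0.000285) and Mcm4 at 8 h (-0.52 ± 0.19, adjusted p = 0.0310), in levels as deposited and not rescaled. The changes of Pppde2 and Mcm4 from 24 to 144 h were 0.29 and 0.35, and neither passed. The difference between a member and its neighbour was not tested. Xrcc6 and Xrcc4 also overlap their neighbours and Dclre1c overlaps Suv39h2 on the opposite strand. Whether the counting used strand is not stated, so reads in those overlaps cannot be assigned for certain.

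The other factors of the pathway were also split, here described from a list of 13 genes that act beside the 7, of which 12 were tested. At 24 h against 0 h 3 rose and 5 fell, where 2892 of all 13907 genes tested rose and 3128 fell. The list median was -0.47 (log2), which is 1.36 when libraries are scaled to the blood-cell genes and 0.33 below the median of all genes there. Polm, which encodes the gap-filling DNA polymerase mu, had the largest change, from 2.26 to 19.5 FPKM (2.66 ± 0.25, adjusted p = 2.09e-09). The gene of the end-joining regulator Cyren (3110062M04Rik in the file) went from 3.37 to 10.7 FPKM (1.305 ± 0.32, adjusted p = 0.00129). From 24 to 144 h 5 rose and 2 fell (2417 and 2164 of all genes tested), with a median of 0.62. So scaled the median was -0.91, which is 0.43 above the median of all genes. Tdp2, the gene of an end-cleaning phosphodiesterase, rose from 9.69 to 25.7 FPKM (1.36 ± 0.27, adjusted p = 0.000259, and -0.26 so scaled). Dntt, which encodes the terminal transferase that adds bases to V(D)J junctions, was listed at 0 in the 3 libraries at 24 h and stood at a mean of 2.32 FPKM at 144 h. Paxx has no row under that name.

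The list with the recombinase genes that make the breaks had the largest median changes of the 5 repair lists at 24 h against 0 h and 144 h against 24 h as deposited, and the smallest with the blood-cell scaling. Of the 4 genes of the V(D)J list, 3 fell at 24 h and 4 rose from 24 to 144 h. Of all 13907 genes tested, 3128 and 2417 did so. The list medians were -1.07 and 1.77. So scaled they were 0.76 and 0.20, which is 0.93 below and 1.54 above the median of all genes. Rag1 went from 5.64 FPKM at 0 h to 1.56 at 24 h and 49.5 at 144 h, a rise of 4.37 ± 0.41 (adjusted p = 2.1e-09, and 3.03 so scaled). Rag2 went from 11.2 to 2.26 and 14.6 FPKM (2.33 ± 0.40 from 24 to 144 h, adjusted p = 3.76e-05, and 0.93 so scaled). Over the same interval Xrcc6 and Prkdc rose by 1.25 and 0.68 as deposited, and the other 5 members were not called. So scaled, the changes of Xrcc6 and Prkdc were -0.44 and -0.57, which is 0.90 and 0.77 above the median of all genes.

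Most genes of the preceding and competing steps were not called at 24 h against 0 h as deposited. In the break-sensing list, which holds Atm and the 53BP1 pathway, 1 of 14 rose and 1 fell at 24 h (median -0.07, or 1.95 with the blood-cell scaling). Of all 13907 genes tested, 2892 rose and 3128 fell at that time as deposited. Mdc1, a scaffold gene at breaks, rose from 12.4 to 19.5 FPKM (0.59 ± 0.15, adjusted p = 0.00218) and Atmin, an ATM cofactor gene, fell by 0.67 ± 0.26 (adjusted p = 0.0351), which turns to a rise of 1.13 so scaled. From 24 to 144 h H2afx, the gene of the histone that ATM marks, rose by 0.97 ± 0.20 (adjusted p = 0.000332, and -0.74 so scaled) and Mdc1 fell by 0.50 ± 0.15 (adjusted p = 0.0105). At 1 h 8 of the 14 had fallen as deposited, against 15.3% of all genes, and at 6 h 4 had (19.2% of all genes). So scaled, 8 had risen at 1 h and 13 at 6 h and 0 had fallen at either time. That scaling puts the median log2 change of all genes at 0.84 (1 h) and 1.22 (6 h).

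In the alternative end-joining list 2 of 8 fell at 24 h and 4 rose from 24 to 144 h. Of all 13907 genes tested, 3128 and 2417 did so. The list medians of -0.41 and 0.73 become 1.42 and -0.85 when scaled to the blood-cell genes. Parp1, the gene of the polymerase that senses breaks, went from 125 FPKM at 0 h to 47.7 at 24 h (-1.42 ± 0.18, adjusted p = 2.28e-07, and 0.72 so scaled) and 176 at 144 h (1.91 ± 0.18, adjusted p = 3.49e-09, and 0.20 so scaled). Xrcc1, a scaffold gene, changed by -0.80 ± 0.24 and 1.04 ± 0.24 over the same intervals, and both turn so scaled, to a rise of 1.26 and a change of -0.61. In homologous recombination 2 of 16 genes fell at 24 h and 2 rose from 24 to 144 h, with medians of -0.21 and 0.48 (1.62 and -1.06 so scaled). Rad54l, a helper of strand invasion, went from 15.0 to 8.26 and 18.7 FPKM (-0.85 ± 0.23 and 1.14 ± 0.23, and 1.11 and -0.44 so scaled). The helicase gene Blm fell by 0.68 ± 0.22 at 24 h (adjusted p = 0.0132), which turns to a rise of 1.33 so scaled, and Rad51ap1 rose by 1.11 ± 0.26 from 24 to 144 h (adjusted p = 0.00118, and -0.51 so scaled).

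**Figure D4:**
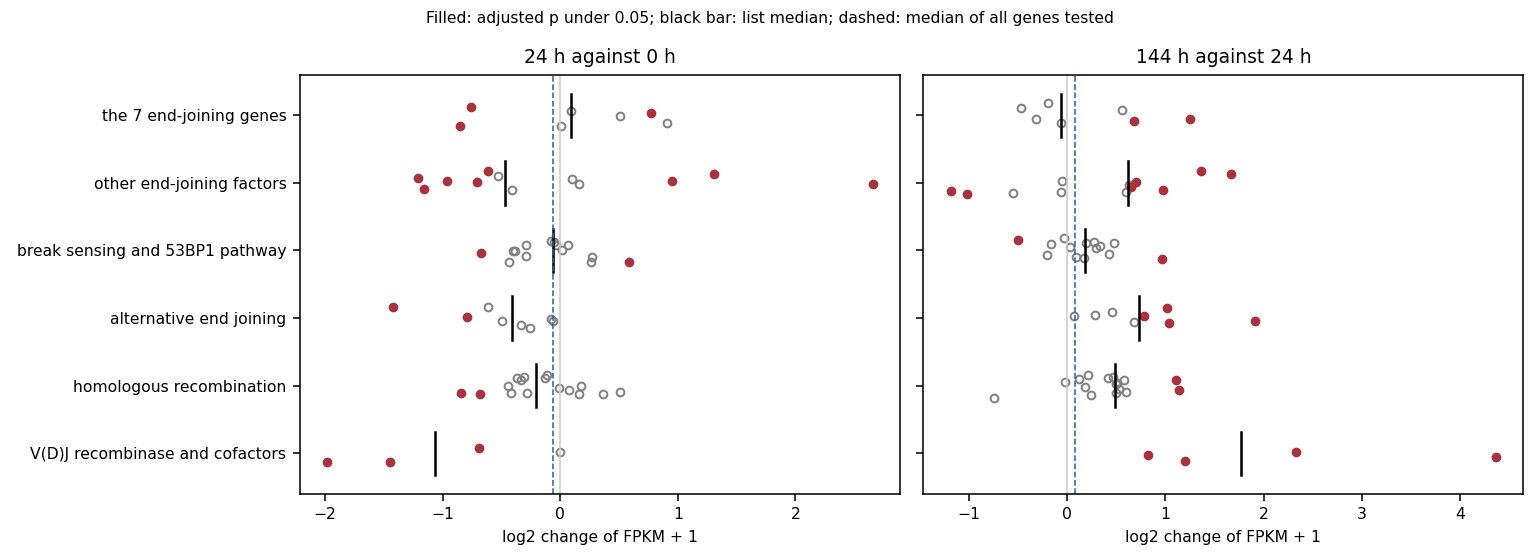
Log2 change of FPKM + 1 (horizontal axis) of each gene in 6 lists (rows) at 24 h against 0 h (left) and 144 h against 24 h (right). Filled points have an adjusted p under 0.05 in limma, black bars are list medians and the dashed line is the median of all genes tested. The V(D)J list has medians of -1.07 and 1.77 and the 7 end-joining genes 0.09 and -0.06. With the blood-cell scaling these become 0.76 and 0.20, and 1.94 and -1.59.

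**Figure D5:**
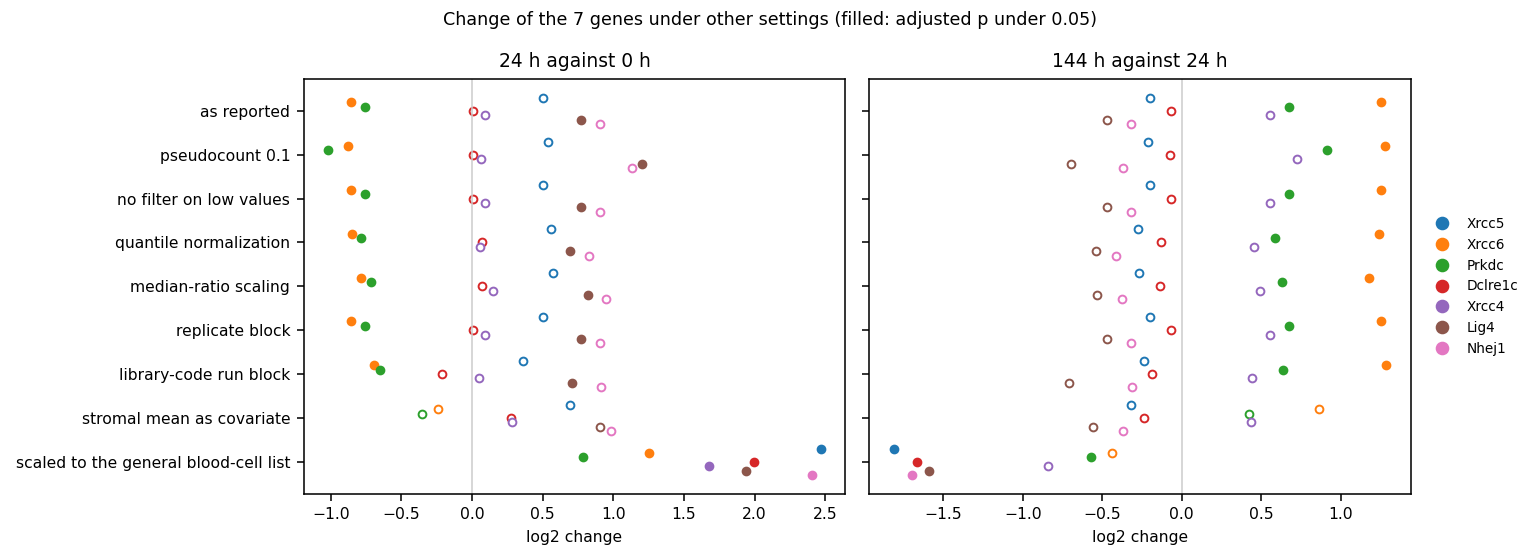
Log2 change (horizontal axis) of each of the 7 genes under 9 settings of the analysis (rows) at 24 h against 0 h (left) and 144 h against 24 h (right), with filled points where the adjusted p of limma is under 0.05. Xrcc6 and Prkdc lie at -0.86 and -0.76 at 24 h as reported, and at 1.25 and 0.79 when scaled to the blood-cell genes. With the stromal covariate they lie at -0.24 and -0.35, both open, in a fit that called few of all genes at 24 h.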

How the data were processed

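The authors deposited 1 table of FPKM values, whose name calls them corrected. What was corrected is not given in the sources used here. TopHat2 2.1.0, Cufflinks 2.1.1 and the mm9 build are named per the submitters' processing notes. The log2(FPKM + 1) values were fitted, unscaled, with limma 3.58.1 in R 4.3.3 (1 mean per time point, empirical Bayes with a mean-variance trend) over 42 libraries of 14 time points. The single libraries at 120 and 168 h were not fitted. The fit was tested on simulated data with independent noise and planted changes. Those data held no library-code runs, shared replicate deviation or shift in feeder content, so that test says nothing about their effect. Contrasts set every later time point against 0 h, and also 144 h against 24 h and 24 h against 6 h. Count models were not used, since the file holds no counts.

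The 7 members, the lists and the comparisons were chosen with earlier results of these data known. All members are named. Of each of 5 repair lists at most 2 called genes with the largest change are named at 24 h against 0 h and 144 h against 24 h, with the 3 genes most like each member (Pearson r of mean log2 values) and divergent neighbours within 1000 bases. Of these, 1 gene like Xrcc4 is not reported here. Marker lists for 7 cell types (stromal, general blood, progenitor, B, T, myeloid, erythroid) checked the labels, and 3 symbols were matched through older names. Of the myeloid list Lyz2 had a median of 81.8 FPKM and Mpo 1.06, and of the progenitor list Kit 10.4 and Flt3 31.5. Apart from the 2 promoter windows (GRCm38.p6) no coordinates are given, since the annotation is of another build, and Desi1 and the other neighbours come from that annotation. Alternatives were another pseudocount, no filter, 3 scalings, a stromal covariate, replicate and library-code run blocks, fits of 2 groups alone and each library left out. The repair lists under each scaling, and the times outside the 7 main comparisons with each library left out, were added after the data were seen.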

Additional observations from a re-analysis of the deposited data

Results flagged for a closer look

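The single libraries at 120 h and 168 h entered no test, and in them 4 of the 7 genes stood above every library at 0 h. The share of all genes that did so was not determined, so this count is no result about the members. Xrcc6 was at 89.96 FPKM at 168 h, above each of the other 43 libraries. Xrcc4 was at 4.09 FPKM at 168 h. Lig4 was at 1.54 FPKM at 120 h and 1.21 at 168 h, and Nhej1 at 5.82 and 4.27. With 1 library at each time, these values have no replicate check. By the estimate of depth, Lig4 and Nhej1 rest on few fragments. The sums of the blood-cell genes were 1649 and 2164 FPKM in these libraries and those of the stromal genes 4745 and 2512, and their part in these values was not tested.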

How the results depend on the processing

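Of the numbers of members called, those that changed by over 1.5 times were these. The share of all genes called under each setting is not given here, apart from the stromal covariate at 24 h. None of these counts is therefore a result about the members. Scaled to the blood-cell genes, 7 members differed at some time. So scaled, 4, 5, 7, 2 and 1 were called higher than 0 h at 1, 6, 24, 72 and 144 h. Another 5 were called from 24 to 144 h (all lower) and 2 from 6 to 24 h. That scaling puts the median log2 change of all genes against 0 h at 0.84, 1.22, 1.69, 0.88 and 0.34 at those times. From 24 to 144 h that median is -1.34, and from 6 to 24 h it is 0.42. With the stromal covariate 1 member differed at some time (Xrcc6) and 0 were called by limma at 1, 6, 24 and 72 h and from 24 to 144 h, where this fit called 4 of all genes at 24 h in place of 6020. Quantile normalization gave 2 at 1 h and 2 at 72 h. Runs of library codes as a block gave 0 at 72 h and 1 at 144 h (Xrcc6, 0.59, adjusted p = 0.0465). With only the groups compared in the fit, 1 was called at 24 h and 1 from 24 to 144 h. With the replicate block, 2 were called at 72 h, the added one being Xrcc4 (0.86, adjusted p = 0.0376), and it changed no other count by over 1.5 times. Same-numbered libraries correlated at -0.0632 to 0.142 over 21 pairs. In 0 of 7 comparisons was every pair over 0.1, the threshold set for pairing, so the main fit took no pairing. Still, 19 of 21 correlated best with their own number, so same-numbered libraries do share a weak deviation that the main fit leaves out. With 1 library left out, the counts ran from 1 to 2 at 6 h, 2 to 3 at 24 h, 0 to 2 at 72 h and 1 to 3 from 24 to 144 h, and from 1 to 2 for the F test with a replicate number left out. The 72 h count was 0 without 72 h replicate 3 and 2 without 72 h replicate 2.

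Directions turned mostly under the blood-cell scaling. At 1 h it gave 0.49 for Xrcc6, 0.46 for Prkdc and 0.32 for Lig4, and at 6 h 0.42 for Xrcc6, 0.55 for Prkdc, 1.07 for Dclre1c and 0.56 for Nhej1. At 24 h it gave 1.25 for Xrcc6 and 0.79 for Prkdc, and at 72 h 0.43, 0.42 and 0.83 for Xrcc6, Prkdc and Dclre1c. At 144 h Prkdc was at 0.22 and Dclre1c at 0.33. From 24 to 144 h Xrcc6, Prkdc and Xrcc4 were at -0.44, -0.57 and -0.84, and from 6 to 24 h Prkdc and Xrcc4 were at 0.23 and 0.31. The stromal covariate turned only values near 0 (Lig4 0.0061 at 1 h, Dclre1c 0.095 at 72 h and 0.039 at 144 h, Prkdc 0.065 at 144 h). So did the run block (Dclre1c -0.21 at 24 h, Lig4 -0.20 at 72 h and -0.0072 at 144 h) and quantile normalization (Lig4 -0.19 at 72 h). With 1 library left out, only uncalled values changed sign. Those of Dclre1c ran from -0.022 to 0.32 at 1 h, -0.15 to 0.13 at 24 h, -0.34 to 0.13 at 72 h, -0.25 to 0.063 at 144 h and -0.25 to 0.048 from 24 to 144 h. Those of Xrcc4 ran from -0.053 to 0.51 at 6 h, -0.32 to 0.52 at 24 h and -0.53 to 0.31 from 6 to 24 h, and those of Lig4 from -0.13 to 0.36 at 72 h and -0.20 to 0.32 from 6 to 24 h. From 6 to 24 h Xrcc5 ran from -0.11 to 0.32 and Prkdc from -0.30 to 0.082. The cause of these differences was not tested. By the estimate of depth Nhej1, Lig4 and Xrcc4 rest on the fewest fragments, and the file holds no counts from which to give their counting error.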
